A study of Mus musculus with 778 samples.

Results

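Fully-grown oocytes (FGO) are the last stage of oocyte growth sampled here, germinal vesicle oocytes of the mouse ovary with a diameter over 70 μm. They were taken as the cells whose name carried the stage FGO in the single-cell RNA count table, and 56 of its 223 cells met this rule. All cells were wild-type oocytes of the ICR strain. FGO and the growing stages GO1 (30 to 45 μm), GO2 (50 to 55 μm) and GO3 (60 to 65 μm) came from females aged 3 to 4 weeks, whereas non-growing oocytes (NGO, under 20 μm) came from females aged 3 to 4 days, so a difference from NGO and a difference of mouse age cannot be told apart. Oocytes were washed to remove somatic cells and picked singly, and molecules were counted by their unique molecular identifiers (UMIs), random tags that let amplified copies be counted once.

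A fully-grown oocyte is arrested in prophase of the first meiotic division and holds a large nucleus, the germinal vesicle. It builds up a store of maternal mRNA during growth, and transcription is largely silenced by the end of it, so that meiotic maturation, fertilization and the first embryonic divisions run on stored transcripts and proteins. Well known products of this stage are the zona pellucida glycoproteins around the oocyte, the secreted growth factors that act on the surrounding granulosa cells, and the proteins of the subcortical maternal complex, which the early embryo needs.

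The 56 cells held 64311908 UMIs over 23201 genes, with 61555 to 3828823 UMIs per cell (median 792312). The cells came from 4 libraries that shared their cell barcodes, with 96 of 96 barcodes used in at least 2 libraries and 8 in all 4, and the library of a cell was not given by its name. The cells were therefore treated as 1 pooled sample per stage with no replicates and no test between stages. Within FGO, differences between libraries cannot be told apart from differences between cells in the variation and co-variation given below. Levels are UMIs of a gene per 1000000 UMIs (CPM) after the cells of a stage were summed. A CPM is a share of the UMIs and does not follow the amount of RNA in an oocyte, and its interval covers counting error only.

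The markers bore out that the cells were oocytes, but did not set FGO apart from the other stages. *Gdf9*, a growth factor secreted by oocytes, stood at 5681 CPM in FGO and 4755 to 5524 CPM in the other 4 stages. *Nobox*, a homeobox transcription factor of oocytes, stood at 1658 CPM in FGO and 897 to 1745 CPM in the other 4 stages. All 13 oocyte identity markers had UMIs in 56 of 56 cells. Transcripts of other cell types were low but not all absent. The 12 blood and endothelium markers summed to 28.3 CPM in FGO against 9.25 to 50.5 CPM in the other 4 stages, of which the endothelial gene *Pecam1* gave 26.7 CPM, with UMIs in 42 cells. The macrophage gene *Cd68* had 1.63 CPM, with UMIs in 30 cells. The 6 adult haemoglobin genes, *Alas2*, the leukocyte gene *Ptprc* and the endothelial gene *Cdh5* had 0 UMIs, which allows up to 0.0466 CPM. The 16 granulosa and cumulus markers summed to 514 CPM in FGO against 361 to 462 CPM in the other 4 stages, and 493 CPM of this was *Serpine2*, a protease inhibitor gene found in every FGO cell. The defining granulosa genes *Amh*, *Foxl2* and *Fst* had 1, 15 and 16 UMIs, whereas *Nr5a2* (7.84 CPM, 43 cells with a UMI), *Inha* (3.95 CPM), *Kitl* (3.53 CPM), the hormone receptor gene *Fshr* (2.75 CPM) and *Cyp19a1* (1.54 CPM) were the highest of the list after *Serpine2*. The 11 theca and stroma markers summed to 8.09 CPM.

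*Ldhb*, which encodes a lactate dehydrogenase subunit (NCBIM37 chromosome 6, 142438769 to 142456477, minus strand), was the most abundant FGO transcript at 11615 CPM (95% exact Poisson interval 11588 to 11641). Its lowest FGO cell held 8334 CPM, the median cell 12582 CPM and the highest 17544 CPM, and it was among the 20 leading genes of 56 of 56 cells. *H1foo*, the linker histone of oocytes (chromosome 6, 115894956 to 115900254, plus strand), followed at 10129 CPM, with cells from 1529 through a median of 10522 to 15179 CPM. *Ubb*, a polyubiquitin gene, stood at 8514 CPM, and *Zp3*, a zona pellucida glycoprotein that takes part in sperm binding (chromosome 5, 136455969 to 136464494, plus strand), at 7512 CPM with cells from 2599 to 14731 CPM.

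Next in order were *Pttg1*, which encodes securin, at 6490 CPM, *Dppa3*, a maternal factor that guards DNA methylation in the zygote, at 6261 CPM, and *H3f3b*, a gene of the replacement histone H3.3, at 6233 CPM. *Fbxw24*, an F-box gene of an oocyte gene cluster, held 6210 CPM. *Gdf9* (chromosome 11, 53244525 to 53251406, plus strand) had cells from 1116 through 5134 to 7250 CPM and was among the leading 20 in only 39 of 56 cells. The remaining members were *Gm15698*, *Spin1*, *Cdk7*, *Khdc3*, *Intu*, *Dppa5a*, *Fbxw14*, *Tcl1*, *Gm1821*, *Sub1* and *Hsp90aa1*, from 5471 down to 3236 CPM. Of these, *Spin1* encodes a histone reader, *Cdk7* the kinase that activates cyclin-dependent kinases, *Khdc3* a member of the subcortical maternal complex and *Tcl1* a coactivator of Akt. The lists of the leading genes were much alike between stages, with 16 of the 20 shared with GO3 and with GO2, 15 with GO1 and 11 with NGO.

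**Figure D1:**
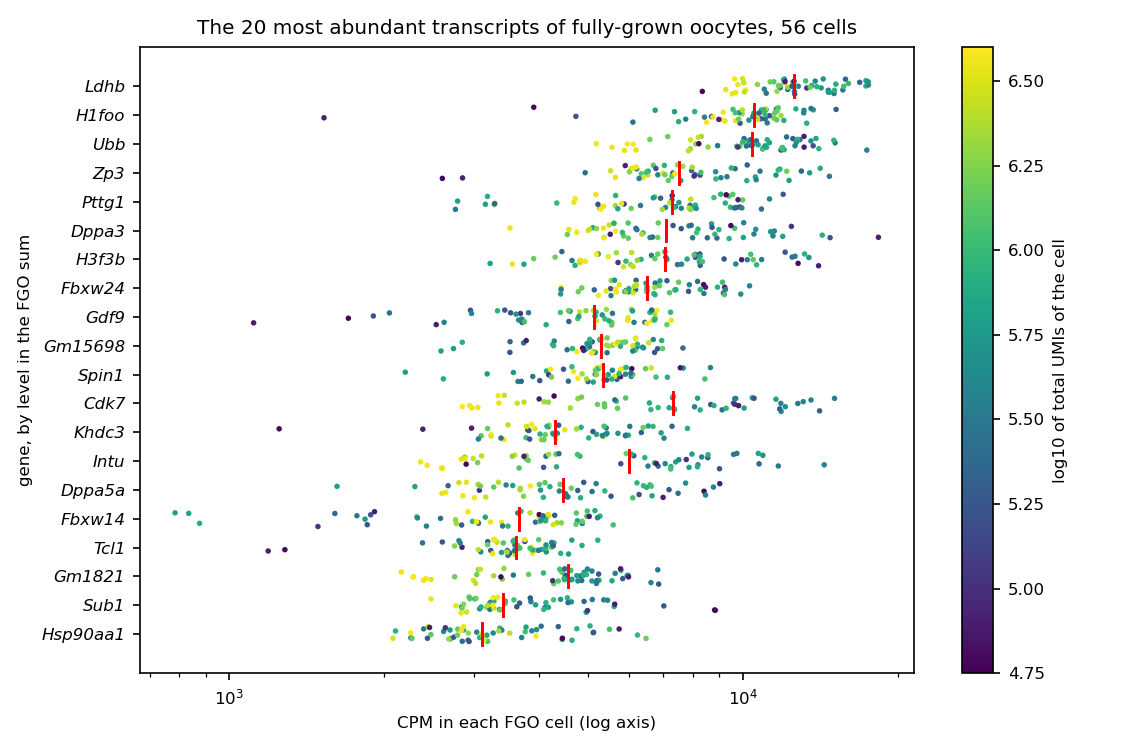
CPM of the 20 most abundant transcripts in each of the 56 FGO cells on a log axis, with genes in the order of their level in the FGO sum. Points are cells, coloured by the log10 of their total UMIs, and red bars are medians over cells. *Ldhb* spanned 8334 to 17544 CPM, whereas *Gdf9*, *H1foo* and *Fbxw14* had tails of low cells, and the deepest cells sat at the low side of *Cdk7*, *Intu* and *Ubb*.

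These 20 genes held 11.5% of the FGO UMIs, the first 100 held 25.8% and the first 1000 held 62.6%. In single cells the share of the 20 ran from 8.97% through a median of 13.1% to 17.3%, so deep cells, which weigh most in the sum, were less concentrated than the typical cell. The distribution was long, with 2086 genes at 100 CPM or more, 7274 at 10 CPM or more and 11570 at 1 CPM or more. In the other stages their own 20 leading genes held 10.2% (GO1) to 12.7% (GO2).

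The promoters of 2 genes are shown because *Zp3* is among the most abundant transcripts and *Zar1*, a maternal gene needed at the egg-to-embryo transition, is a member of the most strongly co-varying oocyte gene pairs below. The sequences are those of RefSeq on GRCm38.p6, 250 bases before to 50 after the start of the gene, and capitals mark every E-box CANNTG, a motif that basic helix-loop-helix factors such as Figla bind. The *Zp3* window lies at chr5:135979855-135980154 on the plus strand, and the *Zar1* window at chr5:72581035-72581334 on the minus strand.
Zp3: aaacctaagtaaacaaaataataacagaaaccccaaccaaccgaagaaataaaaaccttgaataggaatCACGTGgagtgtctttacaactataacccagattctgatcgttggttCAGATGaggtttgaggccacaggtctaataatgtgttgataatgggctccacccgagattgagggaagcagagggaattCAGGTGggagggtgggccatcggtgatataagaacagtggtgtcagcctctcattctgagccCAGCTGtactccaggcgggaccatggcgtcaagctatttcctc
Zar1: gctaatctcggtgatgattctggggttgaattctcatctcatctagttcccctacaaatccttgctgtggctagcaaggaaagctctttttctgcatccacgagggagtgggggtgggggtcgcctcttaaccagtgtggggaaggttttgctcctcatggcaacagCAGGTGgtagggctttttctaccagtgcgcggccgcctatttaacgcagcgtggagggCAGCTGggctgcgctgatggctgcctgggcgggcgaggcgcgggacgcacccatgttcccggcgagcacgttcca
The *Zp3* window held 4 matches, the first beginning 181 bases before the start of the gene, and the *Zar1* window 2, at 83 and 25 bases before it. The motif reads the same on both strands. Of the 20 most abundant genes 13 had a promoter in the table and 11 of them (84.6%) held an E-box, against 72.1% of all 27025 promoters. Genes were also grouped so that each had at least 1 partner in its group with a correlation of 0.8 or more between FGO cells. The share was 66.7% for the 80 genes that include *Zar1*, 62.5% for the 28, 84.6% for the 18 and 60.0% for the 12, each over the members with a promoter in the table. A match of letters is a description and no evidence of binding.

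The stored messages of the maternal programme were present at high levels. The 13 oocyte identity genes summed to 26637 CPM in FGO, above the 19392 to 21442 CPM of the growing stages and under the 35879.7 CPM of NGO. The 8 genes of the subcortical maternal complex had the same order, 17455 CPM in FGO against 11810 to 13114 CPM in GO1 to GO3 and 25013 CPM in NGO. Within that complex *Khdc3* led with 4330 CPM, followed by *Nlrp5* (2937 CPM), *Zbed3* (2842 CPM), *Ooep* (2224 CPM) and *Tle6* (2098 CPM). FGO was the highest of the 5 stages for 2 of the 8, *Nlrp5*, also known as Mater, and *Nlrp2*. Over all genes that reached 10 CPM in some stage this held for 1028 of 8671 (11.9%). *Nlrp5* stood at 2937 CPM in FGO, 1764 CPM in GO3 and 2236 CPM in NGO.

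The 32 genes of meiotic arrest and resumption summed to 7339 CPM in FGO, 7269 to 7794 CPM in GO1 to GO3 and 4967 CPM in NGO, and single members differed from GO3 in both directions. *Ccnb1*, the cyclin B1 gene whose product drives entry into M phase, stood at 1141 CPM in FGO against 1512 CPM in GO3, and *Cks2*, which encodes a small partner of Cdk1, at 1313 against 1005 CPM. *Mos*, the kinase gene of the egg's meiotic arrest, held 747.48 CPM in the FGO sum and 730.3 CPM in that of GO3. Its median FGO cell held 605 CPM against 721 CPM in GO3, and 38 of 56 FGO cells lay under the GO3 median. The maternal mRNA decay genes, led by *Btg4*, an adaptor of the deadenylase complex, at 1134 CPM, summed to 2959 CPM in FGO against 3265 CPM in GO3, 4085 CPM in GO1 and 1973 CPM in NGO. Among storage genes *Zar1* led with 2583 CPM, and *Pabpn1l*, a poly(A)-binding protein gene of oocytes, held 1298 CPM. Among chromatin factors *Npm2*, which encodes the egg's nucleoplasmin, stood at 1798 CPM and *Dnmt1*, the maintenance DNA methyltransferase gene, at 1309 CPM.

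FGO was the highest of the 5 stages, by any margin, for 1028 of 8671 genes that reached 10 CPM in some stage (11.9%), and the lowest for 584 (6.74%). NGO was the highest for 3961 and GO1 for 2066, so that NGO or GO1 was the highest stage of most genes. Counts within gene lists are read against these shares. They rest on the stage sums, and some margins were small, such as 1.02-fold over GO3 for *Mos* and 1.03-fold over GO2 for *Gdf9*. *Spc25* was 1.04-fold over GO3 and *Cdca8* 1.06-fold over GO2. Only 1 of 13 oocyte identity genes, 0 of 22 maternal chromatin factors and 0 of 20 maternal mRNA decay genes were highest in FGO. FGO was the highest for 5 of 25 genes of spindle and chromosome segregation (*Aurkc*, *Kif11*, *Cdca8*, *Ndc80* and *Spc25*), 3 of 28 genes of meiotic arrest and resumption (*Cks2*, *Mos* and *Ensa*), 2 of 11 zona and secreted factor genes (*Gdf9* and *Astl*, the gene of the cortical granule protease that cleaves the zona), 5 of 71 respiratory chain genes and 0 of 79 ribosomal protein genes. The median log2 ratio of FGO to GO3 was 0.45 over the subcortical maternal complex, 0.21 over ribosomal proteins, 0.17 over the respiratory chain and -0.08 over meiotic arrest and resumption, beside 0.08 over all 8671 genes.

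Few genes stood clearly above every other stage. Under a rule of size, at least 10 CPM in FGO and at least 2-fold above each of the other 4 stages, 9 genes (0.104%) were found, where NGO had 1139, GO1 43, GO2 1 and GO3 1. *Olfm1*, which encodes the secreted glycoprotein olfactomedin 1 (chromosome 2, 28048512 to 28086256, plus strand), was the most abundant of them at 133.96 CPM against 51.2 CPM in GO1, the next highest stage. Its cells ran from 35.3 through a median of 110 to 1121 CPM, 54 of 56 lay above the GO3 median of 44.3 CPM and 31 above the highest GO3 cell (105.62 CPM), so the stages overlapped. The ratio of sums was 2.62 (95% exact interval 2.47 to 2.77, counting error only), 1.39 on the log2 scale. With 26 cells drawn from every stage the log2 ratio was 0.70, under the 2-fold limit.

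*Oaf* had the largest ratio, 17.99 CPM against 6.66 CPM in GO3, 2.70-fold (2.39 to 3.06), but in cells thinned to 50000 UMIs its log2 ratio was 0.76 in place of 1.43, under the 2-fold limit. *Rara*, the retinoic acid receptor alpha gene (chromosome 11, 98789132 to 98836256, plus strand), stood at 16.5 CPM in FGO and 5.93 to 6.74 CPM in the other 4 stages, 2.45-fold (2.16 to 2.78) above the next, with 45 of 56 cells above the GO3 median. *Abcd4*, a lysosomal transporter gene of vitamin B12 handling, was 2.04-fold (1.92 to 2.17) above GO3 at 62.7 CPM, with UMIs in all 56 cells and 52 of them above the GO3 median. *Efna4*, an ephrin ligand gene, was 2.12-fold (1.98 to 2.27) above GO3 at 50.8 CPM. Over the settings tried the log2 ratio ran from 0.94 to 1.21 for *Abcd4* and from 0.86 to 1.02 for *Efna4*. Both thus fell under the 2-fold limit in some settings. The other members were *Ifi27l2a*, an interferon-inducible gene (2.26-fold, with a log2 ratio of 1.17 in the sums, 1.58 in thinned cells and 0.58 with 26 cells of every stage), *Galnt16*, a gene of protein O-glycosylation (2.14-fold), and *2810468N07Rik* (2.11-fold, with a log2 ratio of 0.47 in thinned cells), all under 12 CPM in FGO. *Cpne1*, just outside the rule, was 1.91-fold above its next stage.

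*Krt8*, a keratin gene of the intermediate filaments, entered this list through few cells. Its sum was 25.9 CPM in FGO against 10.5 CPM in GO3, 2.47-fold (2.24 to 2.73), but its median FGO cell held 6.17 CPM, under the GO3 median of 8.32 CPM. Its highest cell reached 214 CPM and gave 20.3% of its FGO UMIs, and 24 of 56 cells lay above the GO3 median. With every cell thinned to 50000 UMIs the log2 ratio was 0.06 in place of 1.31. *Galnt16* also fell in thinned cells, with a log2 ratio of 0.23 there and 1.10 in the sums. Its median FGO cell was above that of GO3, though (5.38 against 4.79 CPM), with 31 of 56 cells above the GO3 median.

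In FGO 12 genes were 2-fold or more below every other stage (0.138%), all of which kept this direction in the settings tried. Not all kept the size, and with 26 cells of every stage 6 of the 12 were still called. The log2 ratio shrank as far as -0.43 for *Btk*, -0.72 for *Dlg2*, -0.77 for *Dppa4*, -0.78 for *Tceal8*, -0.80 for *Ptgr1* and -0.93 for *Zbtb32*. The others stayed 2-fold or more below the next lowest stage. *Fetub*, which encodes fetuin-B, an inhibitor of the zona-cleaving protease (chromosome 16, 22918455 to 22939839, plus strand), stood at 14.1 CPM in FGO against 45.7 CPM in GO3 and 77.6 to 93.6 CPM in the earlier stages. Its FGO cells ran from 0 through a median of 10.7 to 32.3 CPM, 56 of 56 lay under the GO3 median and 17 under the lowest GO3 cell (8.50 CPM). *Stxbp6*, the gene of a syntaxin-binding protein of vesicle fusion, stood at 10.7 CPM against 34.2 CPM in NGO, the lowest other stage, and 46.3 CPM in GO3, with 31 of 56 cells under the lowest GO3 cell. *Gm364* had the largest gap, 5.75 CPM against 18.97 CPM in NGO, 3.30-fold lower (2.87 to 3.79).

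*Dmrtb1*, a DM-domain transcription factor gene of germ cells, stood at 7.35 CPM in FGO and 21.1 CPM in NGO, and *Dppa4*, a pluripotency-associated gene, at 6.78 CPM in FGO and 13.9 CPM in GO3. *Tceal8* (39.5 against 114.15 CPM in GO3), *6430710C18Rik* (12.5 against 31.2 CPM), *Dlg2*, a synaptic scaffold gene (6.52 against 14.01 CPM), *Btk*, a tyrosine kinase gene of B cells (9.64 against 20.2 CPM), and *Zbtb32* (6.48 against 13.05 CPM) had GO3 as the next lowest stage. *Cldn34b2* (5.19 CPM) and *Ptgr1* (9.89 CPM) had NGO as the next lowest, at 13.3 and 19.9 CPM. *Lonrf3*, just outside the rule, was 1.95-fold below its next stage.

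**Figure D2:**
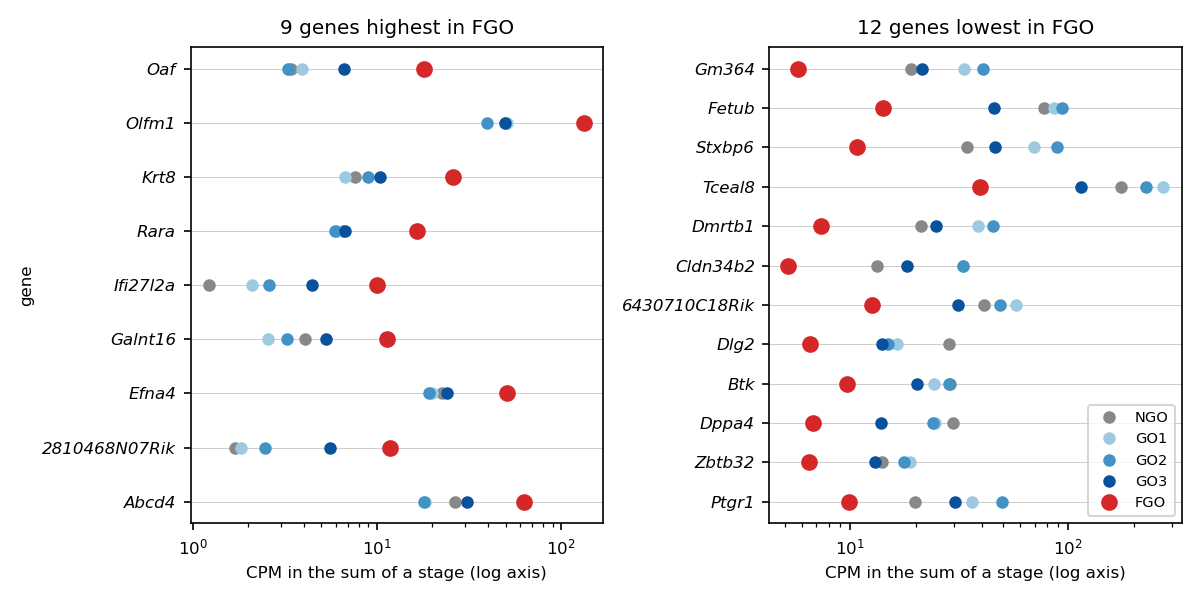
Level in the summed UMIs of each stage, in CPM on a log axis, of the 9 genes at least 2-fold above (left) and the 12 genes at least 2-fold below (right) every other stage in FGO. Each dot is a stage sum of 26 to 56 cells with no replicates, and FGO is red. GO3 was the next highest stage for 8 of the 9 genes on the left.

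To compare cells, each was thinned at random to 50000 UMIs. At this depth an FGO cell showed 4442 to 7057 genes with a UMI, median 6327, against a median of 10398.5 with all UMIs. The mean was 6286 (SD 507, n = 56 cells) in FGO and 6510 (SD 249, n = 44 cells) in GO3, so the spread between FGO cells was wider. The number at equal depth still went with the original depth of the cell (r = 0.79 with log10 of total UMIs over 56 cells). The median Spearman correlation between pairs of FGO cells was 0.699 over 8671 genes (lowest 0.520, highest 0.762). It was 0.724 within GO3, 0.720 within NGO, 0.718 within GO2 and 0.659 within GO1, and 0.686 between FGO and GO3 cells. The likeness of an FGO cell to the others also went with its depth (r = 0.57 with log10 of total UMIs).

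Variation between cells was measured as the coefficient of variation (CV) left after counting noise was taken off, over the 2004 genes with a mean of at least 5 UMIs per thinned cell. The median CV was 0.300, and 201 genes (10%) were variable, with a CV of 0.5 or more, and 366 (18.3%) steady, with 0.2 or less. By the same measure 74 of 2026 genes (3.65%) were variable in GO3 and 4.84% of 2169 in NGO. FGO was more variable than GO3 for 1362 of the 1798 genes measured in both (75.8%), with median CVs of 0.295 and 0.222. Before thinning the shallowest GO3 cell had 232640 UMIs and the shallowest FGO cell 61555, and the part of depth in this difference was not tested. GO2, with 14.5%, and GO1, with 26.3%, had larger shares, from fewer cells. GO1 was also the shallowest stage, with a median of 110146 UMIs over its 51 cells. In FGO 7.09% of the genes measured were variable without the 10 shallowest cells and 6.498% without the 5 cells farthest from the centre of the components described below.

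Some of the most variable FGO transcripts had cells far above the median cell. Others were spread more broadly, such as *Cdc5l*, with quartiles of 19.9, 51.6 and 167 CPM and a highest cell of 397 CPM. *Ppp1r16b*, which encodes a regulatory subunit of protein phosphatase 1, had a CV of 1.81, with a lowest cell of 1 UMI and a median of 5.5 of 50000, and 35.7, 105.95 and 2143 CPM in the lowest, median and highest cell with all UMIs. *Actr10*, a dynactin subunit gene, ran from 0 through 3 to 80 UMIs (CV 1.80), and *Kmt2c*, a histone H3K4 methyltransferase gene, from 0 through 3 to 72 UMIs (CV 1.74). In each the highest cell was more than 10 times the median cell. *Ctsl*, the gene of the lysosomal protease cathepsin L, followed with 0, 5.5 and 88 UMIs (CV 1.36), then *E330020D12Rik* (1.32), *Gmeb1* (1.23), *Rn45s*, the ribosomal RNA precursor (1.14), *Teddm1b* (1.11), *Slc45a3* (1.10), *Luc7l2*, a splicing factor gene (1.09), *Nucks1* (1.07), *Gm16702* (1.06), *Pbld1* (1.04), *Cdc5l* (1.04) and *Rab33b* (1.03). Of these 15 genes 14 were lower in deep cells, with r between -0.29 and -0.82 to log10 of total UMIs, and *Slc45a3* was higher (r = 0.74).

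At the other end 35 of the 2004 genes had no variation that could be measured beyond counting noise at this depth. Their CV of 0 is the floor of the estimate: with all UMIs *Atg5* ran from 87.7 through a median of 365.5 to 467 CPM. The most abundant of them were *Rbm39*, a splicing factor gene, with 11, 19 and 29 UMIs in its lowest, median and highest cell, and *Atg5*, an autophagy gene, with 6, 19.5 and 27 UMIs. *Nudt5*, *Commd1*, *Lin37*, *Cenph*, a kinetochore gene, *Fam96b*, *Taf12*, a TFIID subunit gene, *Ssbp1* and *Rchy1* followed. Among the most abundant genes *Ldhb* varied little (CV 0.18) and *Intu* most (0.47).

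By gene list, 12 of the 30 measured proteasome genes were steady and 0 variable, beside 18.3% steady and 10% variable over all 2004 genes, and the median CV of that list was 0.23. Translation factors had 9 of 26 steady and 1 variable, and RNA polymerase II subunits 3 of 9 and 1. Ribosomal proteins, with 12 of 66 steady and 4 variable, and the respiratory chain, with 10 of 61 and 2, had steady shares close to that of all genes. The 12 measured oocyte identity genes had 0 steady and 0 variable members, with a median CV of 0.32. The variable members of maternal lists were few, and against 10% of all genes most of these counts are no result about the lists. They were *Oosp3*, *Astl* and *Fgf8* among 10 zona and secreted factor genes, *Mapk3* and *Fzr1* among 16 of meiotic arrest and resumption, *Zar1l* among 9 of storage and translation, *Tle6* among 8 of the subcortical maternal complex, *Uhrf1* and *Kmt2d* among 12 chromatin factors and *Smc1b* and *Bub1b* among 13 of the spindle. *Bub1b*, a spindle checkpoint kinase gene, ran from 5.71 through 158.5 to 575 CPM, and *Bub3*, which acts in the same checkpoint, from 194 through 324 to 450 CPM.

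**Figure D3:**
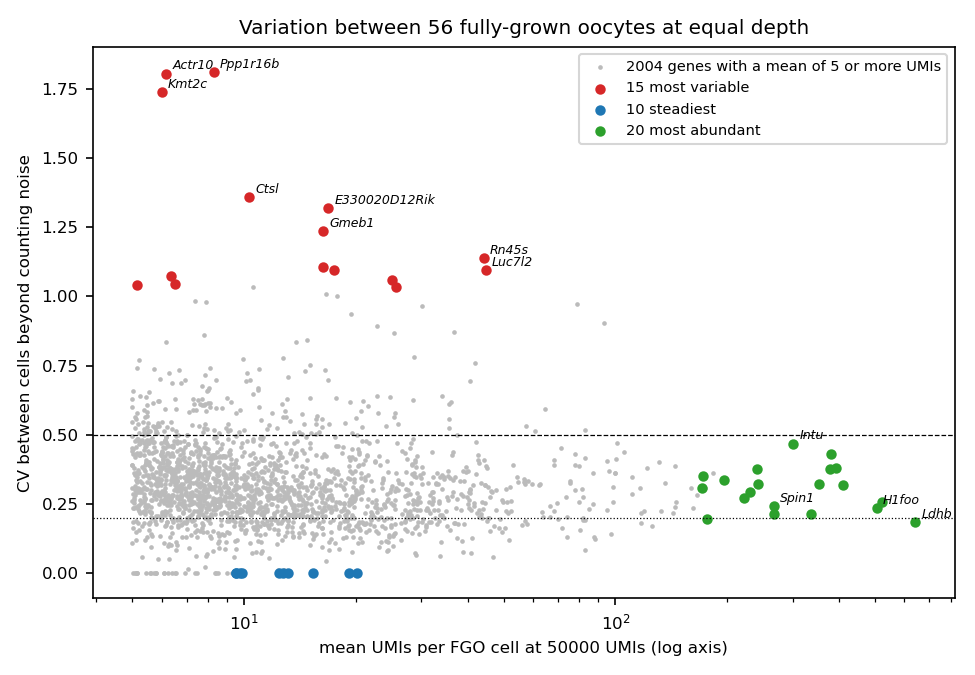
Coefficient of variation between the 56 FGO cells beyond counting noise, against the mean UMIs per cell at 50000 UMIs (log axis), for 2004 genes. Dashed and dotted lines mark 0.5 and 0.2. The 15 most variable genes (red) had CVs from 1.03 to 1.81 and the 10 steadiest (blue) 0, and the most abundant genes (green) reached at most 0.47.

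A pair of directions held much of the variation. The first principal component of log2(UMIs + 1) took 24.5% of the variance between FGO cells and the second 10.6%, with 3.66% on the third. Position on the first went with depth although all cells had been thinned alike (r = -0.82 with log10 of total UMIs, n = 56), and with the genes detected (r = -0.96). At its end of shallow cells stood *Malat1*, a nuclear long non-coding RNA, with 13 UMIs in its lowest, 63 in its median and 390 in its highest cell, and *Rab33b*, *Washc4*, *Luc7l2*, *Nucks1*, *Omd* and *Loxl2*. The summed share of respiratory chain genes ran from 18820 to 53140 CPM over the thinned cells and went the same way (r = 0.88), as did ribosomal proteins (r = 0.73).

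At the opposite end, that of deep cells, stood *Rbm38*, an RNA-binding protein gene, *Plk1*, the polo-like kinase gene of M phase, *Fzr1*, an activator of the anaphase-promoting complex, *Sdc1*, *Slc45a3*, *Dtx2*, *Abhd4*, *Ccdc117*, *Fam46b* and *AU022751*. *Plk1* had 0 UMIs in its lowest, 15 in its median and 32 in its highest cell. The summed granulosa and cumulus markers, almost all *Serpine2*, also went with this end (r = -0.72), and their part in the component was not tested. Cells 50, 53 and 46 lay farthest out at 49.3, 36.9 and 34.5, and had 79783, 61555 and 175082 UMIs. Cells of like depth could also lie apart, such as cell 47 (1113265 UMIs) at 9.72 and cell 31 (930047 UMIs) at -5.81. A part of the library in these positions was not tested. With the relation of each gene to log10 of total UMIs taken out, the leading component held 12.9% of the variance and was close to the second component described next (r of size 0.97 between the positions of the cells, against 0.16 with the original first).

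Among FGO cells the second component did not go with depth (r = 0.02). Its low end carried *E330020D12Rik*, *Olfm1*, *Tmem256*, *Cwc22*, *Ftl1*, the ferritin light chain gene, *Gpx3*, a secreted glutathione peroxidase gene, *Gmeb1*, *Lurap1l*, *Gm11985* and *4930562C15Rik*. Its high end carried *Gm813*, *Nlrp9b*, *Meis2*, a homeobox transcription factor gene, *Gm3143*, *A730082K24Rik*, *Umodl1*, *Oosp3*, *Fam13c*, *2500002B13Rik* and *7420461P10Rik*. *Meis2* had 1 UMI in its lowest, 26 in its median and 68 in its highest cell, and *Ftl1* 6, 21 and 81.

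Loadings on this component went with the ratio of FGO to GO3. Of the 10 genes at the low end all 10 were higher in the FGO sum than in GO3, by 0.65 to 2.36 on the log2 scale, and all 10 at the high end were lower, by -0.47 to -1.25. Over all 2004 genes the loading and the log2 ratio of FGO to GO3 had a Spearman correlation of -0.70, and the median ratio was 0.84 for the 50 genes lowest on the component and -0.61 for the 50 highest. Cells of other stages were then placed on the same axes. GO3 cells lay between 5.51 and 20.7 (median 12.03), GO2 cells between 4.63 and 33.005 (median 13.1), GO1 cells between 6.18 and 24.5 (median 19.9), NGO cells between -31.6 and -12.9, and FGO cells between -28.3 and 19.8 (median 1.04), so that the 3 growing stages lay on the side opposite to NGO and 37 of 56 FGO cells were below every GO3 cell, 19 within the range of GO3 and 6 under the highest NGO cell. Positions of the projected cells went with log10 of total UMIs in GO1 (r = -0.84), GO2 (r = -0.72) and GO3 (r = -0.33), and little in NGO (r = 0.04). The part of depth in the order of the stages was not tested. Among FGO cells the sum of the oocyte identity genes went with the low end (r = -0.92). Of its 12 measured members 8 had a negative r with the component, *Zp3* (r = -0.75) and *Zp2* (r = -0.67) the strongest, and *Bmp15* (r = 0.61), *Oosp1* (r = 0.45), *Nobox* (r = 0.17) and *Ddx4* (r = 0.05) a positive one. *Khdc3* of the subcortical maternal complex also went with the low end (r = -0.75). The FGO sums weigh in both the ratio and the component, so the 2 are not independent.

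**Figure D4:**
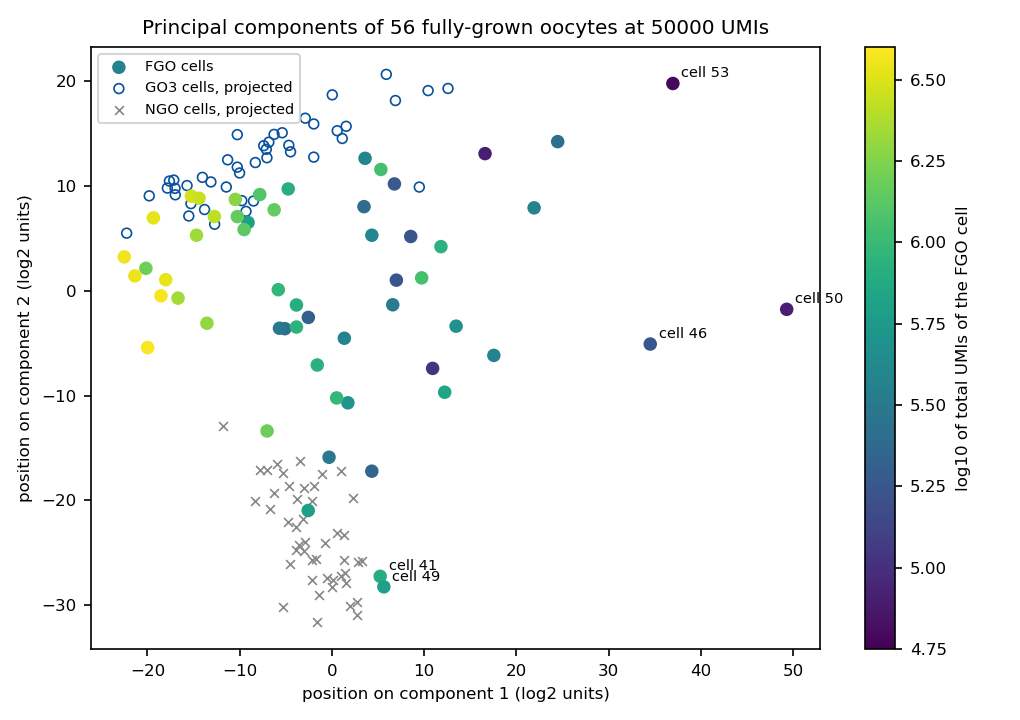
Position of the 56 FGO cells on the first and second principal component at 50000 UMIs per cell, coloured by the log10 of their total UMIs, with GO3 cells (open circles) and NGO cells (crosses) projected onto the same axes. Shallow cells lay to the right, and FGO cells spread from the range of GO3 (5.51 to 20.7) down to that of NGO.

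Genes co-varied in groups. Of 2007006 pairs of genes, 305 (0.0152%) had a Pearson correlation of 0.8 or more over the 56 thinned cells and 65 (0.00324%) one of -0.8 or less. The same 305 pairs had a median r of 0.594 in GO3 and 0.236 in NGO. Pairs and groups, here and below, were chosen by their r in FGO. A lower r in other stages is expected from this choice and does not make them particular to FGO. With the relation to log10 of total UMIs taken out, 90 pairs were at 0.8 or more, 73 of them among the 305, and 1, among the 65, at -0.8 or less. Without the 5 cells farthest from the centre 0.00606% of the pairs stood at 0.8 or more and 16 pairs at -0.8 or less.

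Some of the strongest pairs joined genes whose transcripts are alike in sequence, and their correlation cannot be told apart from reads shared between them. *Gm1821*, annotated as a processed pseudogene, and *Ubb* had r = 0.95 in FGO and 0.85 to 0.95 in the other stages. They share an unbroken stretch of 383 bases, within the coding part of *Ubb*. The windows below, on NCBIM37 at chr14:46704003-46704122 and chr11:62365850-62365969, both plus strand, show its beginning, with the 100 identical bases in capitals after 20 that differ in places.
Gm1821: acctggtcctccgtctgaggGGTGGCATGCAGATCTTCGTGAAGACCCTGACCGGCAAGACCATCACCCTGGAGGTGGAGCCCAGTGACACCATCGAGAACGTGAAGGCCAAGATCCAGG
Ubb: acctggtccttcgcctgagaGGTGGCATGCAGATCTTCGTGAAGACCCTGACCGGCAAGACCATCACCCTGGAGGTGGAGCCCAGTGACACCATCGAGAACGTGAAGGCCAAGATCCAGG
*Cdk7* and *Intu* formed the other such pair (r = 0.92 in FGO and 0.80 to 0.96 in the other stages). The long non-coding RNA gene *9530091C08Rik* went with both (r = 0.95 with *Intu* and 0.94 with *Cdk7*), but no transcript of it was compared here. *Cdk7* and *Intu* share 41 bases after the coding part of each, of which the first 24 are in capitals here, at chr13:101470753-101470782 on the minus strand and chr3:40506642-40506671 on the plus strand.
Cdk7: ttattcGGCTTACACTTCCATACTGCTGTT
Intu: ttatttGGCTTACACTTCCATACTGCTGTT

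The other pairs compared, which join *Gdf9*, *Oas1e*, *Zar1*, *Eif5a*, *Mrps33*, *Rab33b*, *Washc4* and *Plat*, share at most 14 bases in a row between transcripts. *Gdf9* went with *Oas1e*, a member of the oligoadenylate synthetase family (r = 0.93), with *Zar1* (r = 0.93) and with *Eif5a*, a translation factor gene (r = 0.90). At 50000 UMIs *Gdf9* had 50, 252 and 362 UMIs in its lowest, median and highest cell, *Zar1* ran from 16 to 232 UMIs, and the cells low in one were low in the other. With depth taken out these correlations were 0.87, 0.88 and 0.84, and without the 10 shallowest cells 0.86, 0.88 and 0.83. In GO3 they were 0.92, 0.81 and 0.69, and in NGO 0.41, 0.38 and 0.01.

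*Gdf9* ran against *Mrps33*, a mitochondrial ribosomal protein gene (r = -0.86), as did *Oas1e* (r = -0.86). With depth taken out these were -0.77 and -0.78, and in the other stages they ran from -0.84 in GO3 to 0.25 in NGO for *Gdf9* and from -0.87 in GO1 to 0.13 in GO2 for *Oas1e*. *Mrps33* had 37 UMIs in its lowest, 77 in its median and 277 in its highest cell. *Rab33b* with *Washc4* (r = 0.92) and *Plat*, the tissue plasminogen activator gene stored in oocytes, against *Washc4* (r = -0.85) moved most when depth was taken out, to 0.72 and -0.54.

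**Figure D5:**
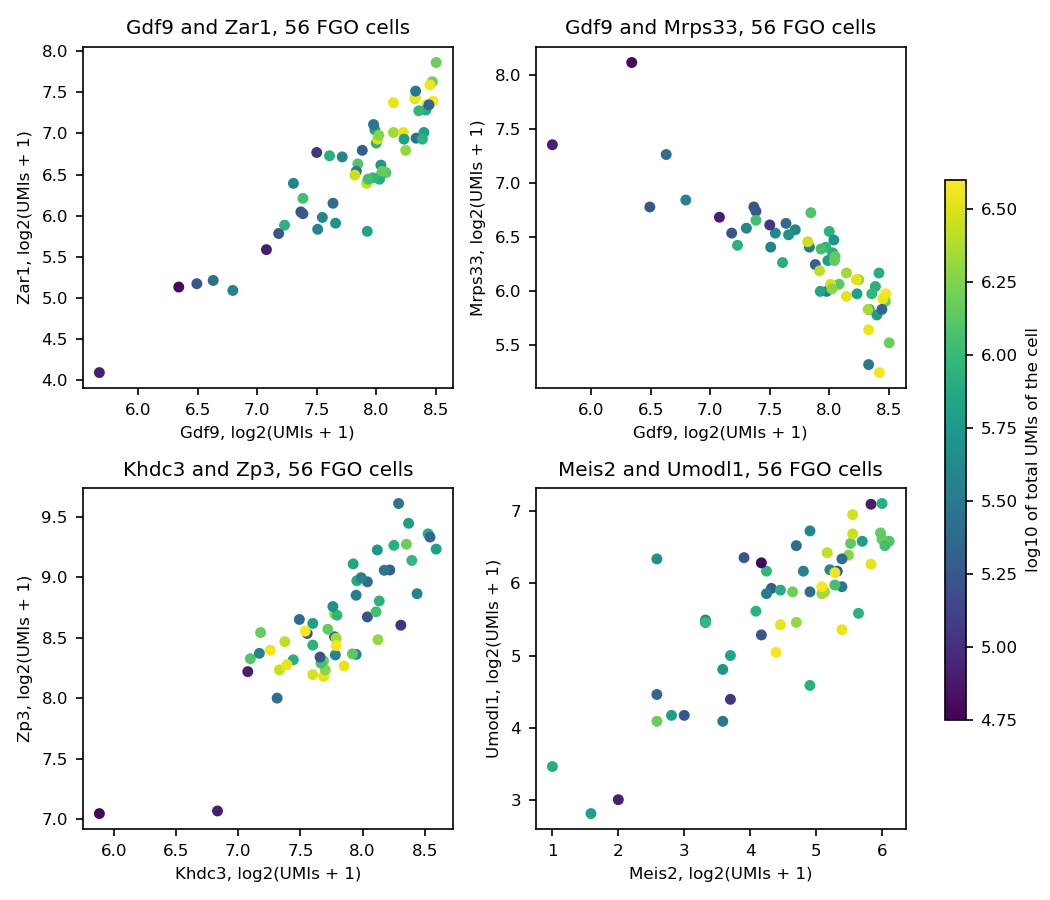
UMIs of 4 gene pairs in the 56 FGO cells at 50000 UMIs per cell, as log2(UMIs + 1), coloured by the log10 of the original total UMIs of the cell. *Gdf9* went with *Zar1* (r = 0.93) and against *Mrps33* (r = -0.86) along depth, whereas *Khdc3* with *Zp3* (r = 0.84) and *Meis2* with *Umodl1* (r = 0.82) did so with cells of all depths mixed.

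Joining pairs at 0.8 or more gave 11 groups, in which a gene needs only 1 partner at that level. The largest, 80 genes, held *Gdf9*, *Nobox*, *Zar1*, *H1foo*, *Mos*, *Ccnb1*, *Plk1*, *Zp1*, *Padi6*, *Tle6* and *Astl*, a mixture of growth factor, chromatin, zona and cell cycle genes, and was higher in deep cells (median r = 0.62 with log10 of total UMIs). A group of 28 with *Malat1*, *Dppa3*, *Sub1* and genes of the respiratory chain and ribosome was lower in deep cells (median r = -0.67). A group of 12 held *Pttg1*, *H3f3b*, *Dppa5a* and *Fbxw24*. In the group of 80 only 177 pairs reached 0.8. The median r between its members was 0.65, the lowest 0.01, and the median with depth taken out 0.45. The median r was 0.72 in the group of 28 and 0.66 in the group of 12, and 0.49 and 0.56 with depth taken out.

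A group of 18 genes was the least tied to depth among the larger ones. It held *Meis2*, *Umodl1*, *Gm813*, *Oosp3*, *Oog3*, *Aspm*, the spindle gene of microcephaly, *Ctsh*, *Slc4a8* and the F-box genes *Fbxw14*, *Fbxw16*, *Fbxw19*, *Fbxw22* and *Fbxw28*, with a median r of 0.77 between members, 0.76 with depth taken out and 0.21 in GO3. The group was chosen by r in FGO, so a lower r in GO3 is expected from the choice. Its genes stood at the high end of the second component, such as *Umodl1* (r = 0.84), *Fbxw16* (r = 0.84) and *Fbxw14* (r = 0.83). The 5 F-box genes share stretches of up to 345 bases (*Fbxw14* with *Fbxw28*), so counts may be divided between them and their correlations are uncertain. *Khdc3* and *Zp3* formed a pair apart (r = 0.84, the same with depth taken out, 0.76 without the 5 cells farthest from the centre and 0.29 in GO3).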

How the data were processed

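Single oocytes of 5 growth stages were measured by single-cell RNA-seq in 4 libraries. Before deposit, the authors sorted reads to cells by their barcodes, trimmed and aligned the reads (Tophat, mm9 transcriptome), collapsed duplicates by UMI, filtered cells on detected genes, transcripts and spike-in share, and deposited raw counts of UMIs per gene and cell. The mm9 build is also named in the submitters' processing notes. The chromatin and DNA methylation data of the study were not used here, and no doublet caller was run because oocytes were picked by hand.

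The members, gene lists and tests were chosen with earlier results of these data known. Since cell names carry no library, each stage was 1 pooled sample, and no p-value was computed. UMIs were summed per stage and expressed as CPM, with 95% exact Poisson intervals for sums and exact binomial intervals for ratios. A gene counted as highest or lowest in FGO at a 2-fold difference from each other stage and 10 CPM in FGO or, for the lowest, in the next stage. Cells were thinned to 50000 UMIs by random draws without replacement (fixed seed), and 13 GO1 cells under that depth were left out. The CV beyond counting noise is the square root of (variance - mean) over the squared mean, for genes with a mean of 5 UMIs. Principal components (centred, not scaled) and Pearson correlations used log2(UMIs + 1). Likeness of cells is Spearman's correlation over genes, which are not independent points.

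Genes named are the 20 most abundant, the highest (up to 15) and lowest (10, and the other 2) in FGO, the 15 most variable and 10 steadiest, 10 at each end of both components, the 8 highest and 4 lowest correlated pairs outside a gene family, and leading or called members of the lists. The result of 1 such pair is not reported here. Pairs and genes named only as examples of a group were chosen after their values were seen. Gene positions are those of GENCODE vM1 on NCBIM37, the same build as mm9. *Khdc3*, *Galnt16*, *Cldn34b2*, *Washc4* and *9530091C08Rik* had no record under that name, and *Washc4* was matched through its older symbol for the comparison of transcripts. The longest identical stretch of 2 transcripts was searched on the same strand from 12 bases up.

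On simulated counts with 200 planted genes of 23201, the size rule found 200 of 200 genes at 3-fold in each direction with 0 false calls, the CV rule 200 of 200 of 2004 genes, and the correlation rule 19891 of 19900 pairs. For the size rule every stage was drawn from the FGO profile with counting noise alone. Its planted genes lay well above the 10 CPM limit. The 0 false calls therefore do not measure false calls in these data, where cells vary and 0 genes were highest in FGO at 3-fold. The CV rule was tried at a CV of 1 against 0.1, far from its limit of 0.5. The correlation rule was tried with a strong shared factor in abundant genes. Neither recovery measures errors near the limits in these data, where the median CV was 0.300. Scaling factors alone came from DESeq2 1.42.0 and edgeR 4.0.16 in R 4.3.3, and all else was done in Python 3.11.15 with scipy 1.17.1, numpy 2.4.6, matplotlib 3.10.9 and pandas 2.3.3.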

Additional observations from a re-analysis of the deposited data

How the results depend on the processing

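No paired analysis was possible because the cells are not tied to the numbered libraries and no result came from a test. The 21 genes called highest or lowest kept their direction under every scaling and weighting tried. The count of genes highest in FGO, 9 in the report, was 8 with DESeq2 size factors (8 shared) and 10 with TMM (8 shared), 19 in thinned cells (4 shared), 556 with no minimum CPM, 3 from 50 CPM and 0 at 3-fold. The mean over cells gave 13, of which 3 were shared. The count of genes lowest, 12, was 21 in thinned cells (10 shared), 7 with 26 cells of every stage (6 shared), 359 with no minimum, 1 from 50 CPM and 3 at 3-fold. Over 5983 genes with 10 CPM in every stage the median log2 ratio of FGO to GO2 was 0.15 with stage totals and -0.07 with DESeq2 factors, and that of FGO to NGO -0.02 with totals and 0.16 with TMM. The share of the 20 most abundant genes was 12.8% as a mean over cells and in thinned cells and 12.9% without the 10 deepest cells.

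Cells thinned to 20000 UMIs gave 75 variable genes (9.25% of those measured), 22.7% of the variance on the first component, 33 pairs at 0.8 or more (0.0100%) and 3 at -0.8 or less, 4510 genes detected and a median likeness of 0.590. Another draw gave 24.1%, 74 pairs at -0.8 or less and 6288 genes. Without thinning there were 9820 (0.493%) and 3538 pairs, 39.4% of the variance, 10361 genes and a likeness of 0.846. A mean of 10 UMIs gave 91 variable genes (8.85%), 30.2% of the variance and 251 pairs at 0.8 or more (0.0475%). Without the 10 deepest cells the first component took 20.6%, and 40 pairs were at -0.8 or less. Of the settings chosen after seeing the data, a mean of 1 UMI gave 1500 variable genes of 5384 (27.9%). Taking out the relation to depth gave 12.9% of the variance, 90 pairs at 0.8 or more (0.00448%) and 1 at -0.8 or less. Leaving out the 5 cells farthest from the centre gave 6.498% of genes variable, 18.5% of the variance, 0.00606% of pairs at 0.8 or more and 16 pairs at -0.8 or less, and leaving out the 10 shallowest gave 19.9% of the variance and 40 pairs at -0.8 or less. The cause of these shifts was not tested. Depth limits the variation measures to abundant genes, and sums rest mostly on the deepest cells.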
